A study of Mus musculus with 7 samples.

Results

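The genes described here are those that pattern the ventral forebrain and mark its inhibitory neurons: the Dlx factors, the enzymes and the vesicular transporter that make and package GABA, and the factors that set interneuron, striatal and olfactory bulb neuron subtypes. Members were taken by symbol from a list of 30 genes, and 29 of them had a row among the 49315 gene rows of the tables; the remaining gene is not analysed here. All 29 passed the filter on low counts, which left 16616 genes in all. They comprise the 6 Dlx and Gad genes, 20 subtype transcription factors, and 3 genes for other products (Slc32a1, Calb2 and Th).

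Bulk RNA sequencing was done on mouse oligodendroglia taken from brain, in 2 groups. The 4 Sox9-tg libraries have the genotype Sox9-tg, and the 3 control libraries the genotype Sox9-wt, wild type for this transcription factor; the series' title places the cells among early postnatal NG2 glia, progenitors that divide and form oligodendrocytes. The labels name no strain, age, sex, sorting step, batch or transgene promoter, and call the libraries biological replicates without naming separate animals or cultures; every p-value is therefore set against the spread of these 7 libraries alone, part of which may be technical. Libraries held 15768472 to 20815459 counts in Sox9-tg and 17275678 to 30507326 in control, and Sox9 itself was at 2207, 2741, 3597 and 3115 counts per 1000000 (CPM) in Sox9-tg replicates 1 to 4, against 239, 353 and 293 CPM in control replicates 1 to 3 (9.88-fold higher, adjusted p = 0.000181).

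In the developing ventral forebrain, the ganglionic eminences give rise to GABAergic neurons and also to a wave of oligodendrocyte progenitors. Gsx factors and Nkx2-1 divide these progenitor zones, Dlx1, Dlx2, Dlx5 and Dlx6 drive inhibitory neuron differentiation and migration, and later factors such as Lhx6, Isl1 or Sp8 assign a subtype. In mice, loss of Dlx1 and Dlx2 is known to raise oligodendrocyte formation at the expense of neurons. The Dlx genes lie in convergent pairs that share enhancers. Dlx1 (GRCm38 chromosome 2, 71528113 to 71533981, plus strand) is 9426 bases from Dlx2 (71543408 to 71546754, minus strand), and Dlx6 (chromosome 6, 6863334 to 6868568, plus strand) is 9236 bases from Dlx5 (6877805 to 6882085, minus strand).

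Estimates were negative for 23 of the 29 members and positive for 6, and 9 of the 11 genes that fell were subtype factors, which make up 20 of the 29. Of the 29 members, 11 fell and 2 rose with an adjusted p under 0.05, and 16 did not pass; here and below, edgeR's quasi-likelihood test was used and its p-values were adjusted by Benjamini-Hochberg over all genes tested. The 13 called members are 44.8% of the 29, whereas 13.5% of all genes tested were called. The 11 that fell are 37.9% against 5.86% of all genes, and the 2 that rose are 6.9% against 7.69%. The groups did not overlap in 13 members (44.8%, against 24.5% of all genes tested), with all Sox9-tg libraries below all control libraries in 11 of them. Log2 fold changes, always Sox9-tg over control, had a median of -0.79 over the members and of -0.01 over all genes. Without control replicate 3, 7 members fell and 1 rose. In bulk RNA, fewer cells of a type and less RNA per cell cannot be told apart.

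**Figure D1:**
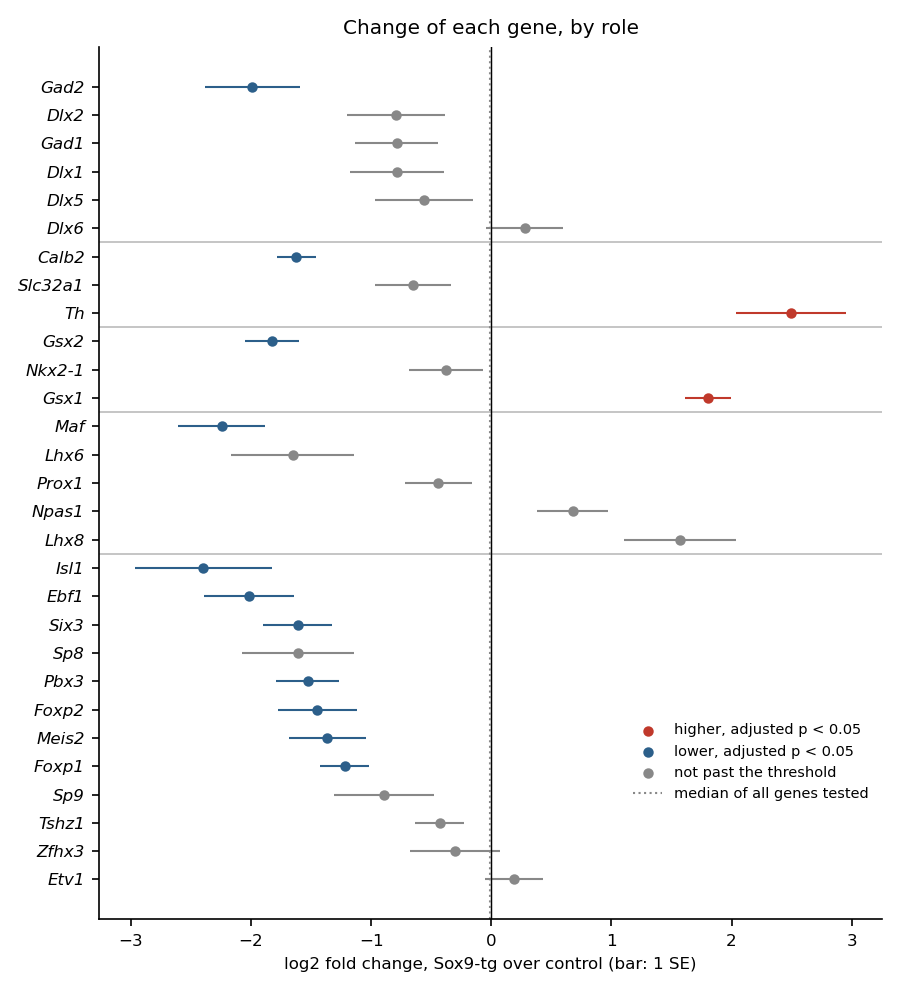
Log2 fold change, Sox9-tg over control, of the 29 members in rows, with a bar of 1 SE on each side; rows are grouped by role from Dlx and Gad genes at the top to lateral eminence, striatal and olfactory bulb factors at the bottom. Blue points (11 genes, Gad2 the only Dlx or Gad gene among them) were lower and red points (Gsx1 and Th) higher past the threshold; grey points did not pass.

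The Dlx and Gad genes are described first. Their median log2 fold change was -0.79 over 6 genes, of which 1 passed the test of group alone, and that of the 20 subtype factors was -1.29, of which 9 fell and 1 rose. The medians differed by 0.51. For comparison, the same medians moved between libraries of a group by an SD of 0.66 for Dlx and Gad genes, 0.42 for subtype factors and 0.29 for the difference. With 1 library left out at a time the difference was 0.41 to 0.66. No test was made of this difference between lists.

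Dlx1 and Dlx2 were the most abundant members. Per exon length, Dlx1 averaged 134 CPM per kilobase of exon (RPKM) in Sox9-tg and 231 RPKM in control libraries, and Dlx2 averaged 93.4 and 162 RPKM; these were the highest and second highest levels among the 29 genes in both groups. Dlx1 was at 1093, 288, 748 and 760.4 CPM in Sox9-tg replicates 1 to 4, against 1519, 836 and 1377 CPM in control replicates 1 to 3. The highest Sox9-tg library thus stood above the lowest control library, and the difference did not pass (log2 fold change -0.78, SE 0.39, adjusted p = 0.242). Dlx2 was at 391.5, 97.5, 305 and 273 CPM in Sox9-tg libraries, against 536, 300.3 and 547 CPM in control libraries. It overlapped between groups in the same way (-0.79, SE 0.41, adjusted p = 0.256). Dlx1as, which lies antisense to Dlx1 and shares 335 exonic bases with it, averaged 26.2 ± 19.0 CPM in Sox9-tg and 67.4 ± 25.6 CPM in control libraries (SD, n = 4 and 3) and did not pass either (adjusted p = 0.125).

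Dlx5 and Dlx6 had estimates of opposite sign. Dlx5 was at 142, 34.5, 114 and 93.8 CPM in Sox9-tg libraries, against 170.0, 95.4 and 159 CPM in control libraries (-0.56, SE 0.41, adjusted p = 0.425). Dlx6 was at 92.9, 37.6, 63.7 and 54.3 CPM in Sox9-tg libraries, against 62.5, 32.0 and 59.3 CPM in control libraries (0.28, SE 0.32, adjusted p = 0.631). Neither passed, and Dlx6 was the only Dlx or Gad gene with a positive estimate. Dlx6os1, the long non-coding RNA antisense to Dlx6 and known to act in the regulation of these genes, averaged 181 ± 114 CPM in Sox9-tg and 373 ± 123 CPM in control libraries (SD, n = 4 and 3; adjusted p = 0.187).

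Gad1 and Gad2 encode the forms of glutamate decarboxylase, the enzyme that makes GABA. Gad2 fell 3.96-fold and was the only Dlx or Gad gene to pass in the test of group alone. It was at 79.4, 21.6, 41.2 and 42.5 CPM in Sox9-tg libraries, against 223, 115 and 212 CPM in control libraries, without overlap (-1.99, SE 0.39, adjusted p = 0.0122; 0.0544 without control replicate 3). Gad1 was at 202, 66.6, 130.1 and 123 CPM in Sox9-tg libraries, against 256, 144 and 275 CPM in control libraries. The highest Sox9-tg library stood above the lowest control library (-0.79, SE 0.35, adjusted p = 0.185). Slc32a1, which encodes the vesicular GABA transporter, was at 54.4, 17.9, 40.6 and 36.6 CPM in Sox9-tg libraries, against 71.3, 46.3 and 59.1 CPM in control libraries (-0.65, SE 0.32, adjusted p = 0.228).

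**Figure D2:**
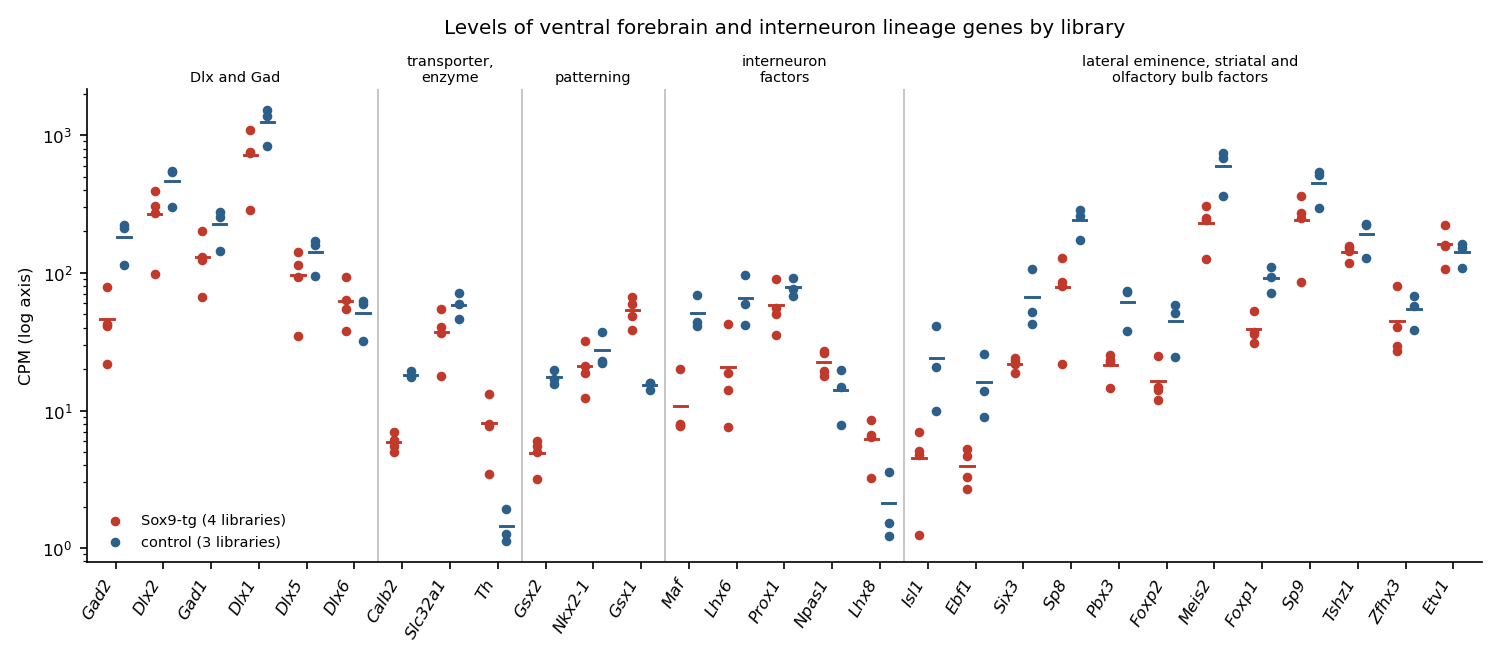
CPM of each member by library on a log axis, Sox9-tg (red, 4 libraries) left of control (blue, 3 libraries) for each gene, with a short line at the group mean. The groups overlap for Dlx1, Dlx2, Dlx5, Dlx6 and Gad1 and stand apart for Gad2, Gsx1, Gsx2, Calb2 and Th.

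Single libraries often took the same place in their group. Sox9-tg replicate 1 was the highest and Sox9-tg replicate 2 the lowest Sox9-tg library in all 6 Dlx and Gad genes, and control replicate 2 was the lowest control library in all 6. Over all 29 members, Sox9-tg replicate 1 was highest of its group in 22 and Sox9-tg replicate 2 lowest in 22, while control replicate 2 was lowest of its group in 22 and control replicate 1 highest in 21. The highest Sox9-tg library held 3.79 times the Dlx1 level of the lowest, against 1.82 times among control libraries, and 5.87 against 1.66 times for Sp8. Without both libraries numbered 2, a choice made after seeing the data, Dlx2 passed (-0.73, adjusted p = 0.0369), Dlx1 was at -0.73 (adjusted p = 0.0555), Gad1 at -0.79 (adjusted p = 0.0598) and Dlx5 at -0.48 (adjusted p = 0.134).

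**Figure D3:**
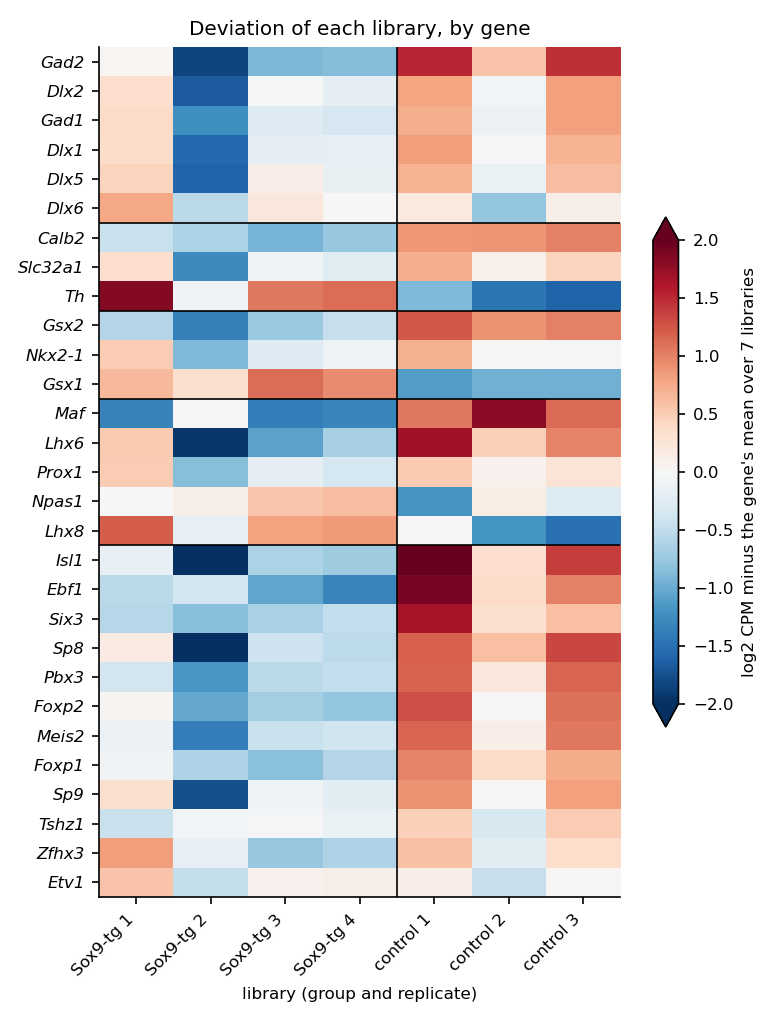
Log2 CPM of each member (rows) in each library (columns; Sox9-tg replicates 1 to 4, then control replicates 1 to 3) minus that gene's mean over the 7 libraries, from blue (lower) to red (higher). Sox9-tg replicate 2 is the lowest Sox9-tg library in 22 of 29 rows and control replicate 2 the lowest control library in 22.

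Markers of other cell types differed between libraries, and some astrocyte markers passed the test between groups. The summed level of 7 microglial markers was 33.4, 209, 68.7 and 54.2 CPM in Sox9-tg replicates 1 to 4, against 68.8, 510.4 and 137 CPM in control replicates 1 to 3, so the libraries numbered 2 were highest in both groups. The 7 markers of vessel cells were at 23.5, 59.2, 28.0 and 32.7 CPM in Sox9-tg libraries, against 30.9, 193 and 27.0 CPM in control libraries, again highest in those numbered 2. All of these markers had counts in every library. All 7 microglial estimates were negative, with a median log2 fold change of -1.47. So were those of the 6 vessel markers tested, with a median of -1.63. Yet no microglial marker passed (adjusted p 0.151 to 0.698) and none of these vessel markers did (0.133 to 0.846, edgeR). The median over 9 astrocyte markers was -0.56. Of 9 astrocyte markers, 3 fell, 1 rose and 5 did not pass, and their sum ranged from 1663 to 2462 CPM in Sox9-tg and from 2400.1 to 4343 CPM in control libraries. The water channel Aqp4 fell (-2.36, adjusted p = 0.00115), as did the glutamate transporter Slc1a2 (-1.20, adjusted p = 0.00652) and the gap junction gene Gja1 (-1.12, adjusted p = 0.0285; 0.0512 to 0.0964 without Sox9-tg replicate 2, 3 or 4 or control replicate 2 or 3). S100b, which oligodendrocyte lineage cells also express, rose (4.27, adjusted p = 0.00394). The part of all these cells in the results was not tested. Markers of the labelled cell type were present in both groups: of 10 NG2 glia genes 9 rose, among them Pdgfra, a growth factor receptor of these progenitors, at 1432 ± 101 CPM in Sox9-tg and 433 ± 22.6 CPM in control libraries (SD, n = 4 and 3), and their sum ranged from 10557 to 14659 CPM in Sox9-tg and from 4381 to 5386 CPM in control libraries. Without control replicate 3, Olig1, Olig2 and Vcan among the 9 did not pass (adjusted p = 0.059, 0.0605 and 0.0776).

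Neuronal markers were present in both groups. The summed level of genes of neurons of any type overlapped between groups, and that of glutamatergic neuron genes did not. The sum of 13 genes of neurons of any type ranged from 2343 to 4250.0 CPM in Sox9-tg and from 3636 to 5647 CPM in control libraries. Of these 13, 3 fell (Rbfox3, Stmn2 and Syt1) and 10 did not pass. All 13 estimates were negative, and their median log2 fold change was -0.65. Dcx, a protein of migrating young neurons, averaged 606 ± 308 CPM in Sox9-tg and 821 ± 277 CPM in control libraries (SD, n = 4 and 3; adjusted p = 0.509). Of 12 tested genes of dorsal forebrain and glutamatergic neurons, 10 fell and none rose, although Emx1 and Emx2 did not pass without control replicate 1. Their median was -1.87, and their sum ranged from 70.6 to 88.7 CPM in Sox9-tg and from 192 to 323 CPM in control libraries. The part of neuron content in the changes of the members was not tested.

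**Figure D4:**
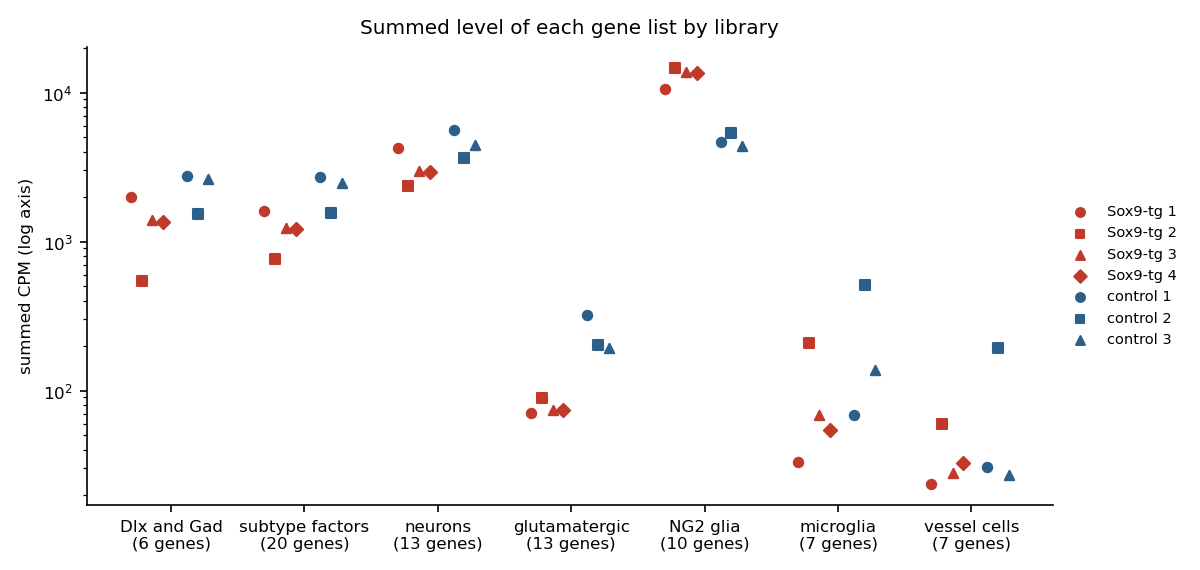
Summed CPM of each gene list by library on a log axis; red, Sox9-tg replicates 1 to 4; blue, control replicates 1 to 3; the marker shape gives the replicate number. Sums are to be read within a list, since lists differ in genes and transcript lengths. The Dlx and Gad sum runs from 546 to 2001 CPM in Sox9-tg and from 1522 to 2767 CPM in control libraries and overlaps, while the NG2 glia and glutamatergic sums do not.

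Among the factors that pattern ventral progenitors, the paralogues Gsx1 and Gsx2 changed in opposite directions. Both are homeodomain factors of the ganglionic eminences, and Gsx2 sets the identity of the lateral eminence. Gsx1 rose 3.49-fold, at 48.6, 38.7, 66.7 and 59.4 CPM in Sox9-tg libraries against 14.2, 15.7 and 15.9 CPM in control libraries (1.80, SE 0.19, adjusted p = 0.000769). Gsx2 fell 3.54-fold, at 5.51, 3.19, 4.96 and 6.002 CPM in Sox9-tg libraries against 19.8, 15.6 and 16.9 CPM in control libraries (-1.82, SE 0.23, adjusted p = 0.00153). Neither gene's groups overlapped, and both kept their calls under all 16 alternatives. Per exon length, Gsx1 averaged 30.1 RPKM in Sox9-tg and 8.61 RPKM in control libraries, which made it the fifth highest of the 29 genes in Sox9-tg and the 20th in control libraries. Nkx2-1, the factor of the medial eminence, was at 32.2, 12.3, 18.8 and 21.2 CPM in Sox9-tg libraries, against 37.2, 23.0 and 22.3 CPM in control libraries, and did not pass (-0.38, SE 0.31, adjusted p = 0.487).

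The sequences before the starts of Gsx1, Gsx2, Gad1 and Gad2 are shown because within each of these pairs the genes differed in their change. They are RefSeq windows on GRCm38.p6 that begin 250 bases before the start, cut where GENCODE annotates an exon, 5′ to 3′ on the plus strand, which is the strand of all 4 genes. Capitals mark ACAAAG or its complement CTTTGT, a match to the core that Sox factors bind. Gsx1 (chr5:147188446-147188695) and Gsx2 (chr5:75075351-75075600) are given whole, with 163 bases of Gad1 (chr2:70561879-70562041) and 128 bases of Gad2 (chr2:22622077-22622204).
Gsx1: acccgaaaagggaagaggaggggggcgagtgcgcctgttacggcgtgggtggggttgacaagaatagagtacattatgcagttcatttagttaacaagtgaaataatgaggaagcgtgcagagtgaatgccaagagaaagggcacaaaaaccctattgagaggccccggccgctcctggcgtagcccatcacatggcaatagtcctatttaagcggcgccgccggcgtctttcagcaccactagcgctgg
Gsx2: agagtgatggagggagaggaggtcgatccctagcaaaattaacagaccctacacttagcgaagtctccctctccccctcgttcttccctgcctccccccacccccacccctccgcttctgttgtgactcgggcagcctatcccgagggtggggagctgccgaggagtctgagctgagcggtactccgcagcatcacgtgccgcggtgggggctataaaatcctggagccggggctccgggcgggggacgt
Gad1: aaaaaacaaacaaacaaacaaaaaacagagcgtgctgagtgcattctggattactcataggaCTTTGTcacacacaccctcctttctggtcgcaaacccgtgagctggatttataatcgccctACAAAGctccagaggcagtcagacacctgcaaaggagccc
Gad2: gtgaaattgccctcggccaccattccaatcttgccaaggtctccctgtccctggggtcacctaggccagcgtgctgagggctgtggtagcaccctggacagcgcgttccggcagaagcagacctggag
The Gad1 stretch holds 2 matches to ACAAAG on either strand, and the others hold none. GENCODE places the start of Gad1 at 70553072, so the Gad1 stretch lies inside the annotated gene. The other stretches end just before the GENCODE start of their gene, so the positions are not alike. A second Sox core, AACAAT or its complement ATTGTT, and TAATTA, a homeodomain core that Dlx and Gsx proteins can bind and that reads the same on both strands, were found in none of the 4. Over all 32851 RefSeq windows of 250 bases before a start, 16.5% held ACAAAG, 9.42% held AACAAT and 4.84% held TAATTA. Such windows were examined for 22 of the 29 members. These 22 members had 31 windows in all, and some had more than 1. Of these 22, 5 had ACAAAG, 4 had AACAAT and 2 had TAATTA in at least 1 window. These are counts of genes, so they cannot be set against the shares of windows above. The remaining members were not examined for these matches, whether or not they have such a window. A match is only a run of letters and does not show binding.

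Factors of interneurons from the medial and caudal eminences did not move together. Of 5 genes, 1 fell and 4 did not pass. Maf, a factor of medial eminence interneurons that microglia and other macrophages also express, fell 4.74-fold, at 7.82, 19.9, 7.66 and 8.003 CPM in Sox9-tg libraries against 41.3, 69.5 and 43.6 CPM in control libraries (-2.24, SE 0.36, adjusted p = 0.00489). The highest library of each group was the one numbered 2, as for the microglial markers, and without both libraries the log2 fold change of Maf was -2.42. The libraries that remained also held microglial markers, and the part of microglia in the change of Maf was not tested. Lhx6, which medial eminence interneurons need to mature and migrate, was at 42.8, 7.63, 14.1 and 18.8 CPM in Sox9-tg libraries, against 96.0, 41.6 and 59.5 CPM in control libraries. It did not pass (-1.65, SE 0.51, adjusted p = 0.0678), but did without Sox9-tg replicate 1 (-2.28, adjusted p = 0.00761). With all 7 libraries, Lhx6 passed in limma-voom (adjusted p = 0.0361) and in edgeR without a filter on low counts (0.0307). Lhx8, a factor of cholinergic neurons of the ventral forebrain, was scarce, at 8.51, 3.24, 6.44 and 6.64 CPM in Sox9-tg libraries against 3.60, 1.53 and 1.23 CPM in control libraries (1.57, SE 0.46, adjusted p = 0.0564). It passed without Sox9-tg replicate 2 (adjusted p = 0.0296) or control replicate 1 (adjusted p = 0.0235). With all 7 libraries, Lhx8 passed in DESeq2 (adjusted p = 0.00661), limma-voom (0.0354) and edgeR without a filter on low counts (0.038). Prox1, a factor of caudal eminence interneurons, averaged 57.9 ± 23.4 CPM in Sox9-tg and 78.6 ± 12.1 CPM in control libraries (adjusted p = 0.354; 0.0302 without Sox9-tg replicate 1), and Npas1, a factor of forebrain interneurons, averaged 22.6 ± 4.80 CPM in Sox9-tg and 14.05 ± 5.95 CPM in control libraries (adjusted p = 0.182; SD, n = 4 and 3 for both).

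The lateral eminence, striatal and olfactory bulb factors were mostly lower. Of 12 genes, 7 fell, none rose and 5 did not pass; 11 of the 12 estimates were negative, and their median was -1.41. Isl1, a LIM homeodomain factor of striatal projection neurons, was at 7.04, 1.25, 5.09 and 4.78 CPM in Sox9-tg libraries, against 41.3, 9.98 and 20.7 CPM in control libraries. It fell 5.27-fold without overlap (-2.40, SE 0.57, adjusted p = 0.0251). Ebf1, another factor of striatal neuron differentiation, was at 4.67, 5.24, 3.28 and 2.68 CPM in Sox9-tg libraries, against 25.7, 9.00 and 13.8 CPM in control libraries (-2.02, SE 0.37, adjusted p = 0.00883). Six3, which acts in ventral progenitors and striatal neurons, was at 22.9, 18.8, 21.7 and 24.3 CPM in Sox9-tg libraries, against 107, 42.5 and 52.0 CPM in control libraries. It fell 3.06-fold (-1.61, SE 0.29, adjusted p = 0.00747). Its antisense neighbour Six3os1, which shares 106 exonic bases with it, fell as well, to 19.1 ± 1.72 CPM in Sox9-tg, against 66.7 ± 37.9 CPM in control libraries (SD, n = 4 and 3; adjusted p = 0.00617).

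Meis2 and Pbx3, partner homeodomain factors of the lateral eminence and its olfactory bulb descendants, also fell. Meis2 was at 305, 127, 242 and 251 CPM in Sox9-tg libraries, against 737, 362 and 685 CPM in control libraries (-1.37, SE 0.32, adjusted p = 0.0238). Pbx3 was at 25.4, 14.5, 22.5 and 23.2 CPM in Sox9-tg libraries, against 74.4, 37.7 and 73.0 CPM in control libraries (-1.53, SE 0.26, adjusted p = 0.00647). The forkhead factors of striatal neurons followed: Foxp1 averaged 39.1 ± 9.21 CPM in Sox9-tg and 91.3 ± 19.3 CPM in control libraries (-1.22, SE 0.20, adjusted p = 0.00545; SD, n = 4 and 3), and Foxp2 averaged 16.4 ± 5.87 CPM in Sox9-tg and 44.9 ± 18.1 CPM in control libraries (-1.45, SE 0.33, adjusted p = 0.0215). Foxp2 was the only called member whose groups overlapped, its highest Sox9-tg library holding 25.0 CPM and its lowest control library 24.5 CPM. The calls of Isl1, Foxp2 and Meis2 were lost without control replicate 1 (adjusted p = 0.105 for Isl1, 0.0851 for Foxp2 and 0.0955 for Meis2). They were also lost in the fits that left out control replicate 3 (0.0701 for Isl1, 0.088 for Foxp2 and 0.104 for Meis2), Sox9-tg replicate 3 (0.065, 0.0657 and 0.0666 in that order of genes) or Sox9-tg replicate 4 (0.066, 0.0648 and 0.0608), and the log2 fold change of Isl1 was -1.74 without control replicate 1.

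The remaining factors of this kind did not pass. Sp8 and Sp9 are zinc finger factors that olfactory bulb interneurons and striatal neurons need. Sp8 was at 128, 21.8, 86.0 and 79.7 CPM in Sox9-tg libraries, against 261, 174 and 288 CPM in control libraries. All Sox9-tg libraries were below all control libraries, yet the adjusted p was 0.0531 (-1.61, SE 0.47). It was 0.0253 without Sox9-tg replicate 1 and 0.0118 without Sox9-tg replicate 2. With all 7 libraries, Sp8 passed in DESeq2 (adjusted p = 0.0433) and in edgeR without a filter on low counts (0.0222). Sp9, the third highest of the 29 genes per length in both groups, was at 363, 85.5, 273 and 251 CPM in Sox9-tg libraries, against 545, 296 and 515 CPM in control libraries (-0.89, SE 0.42, adjusted p = 0.209). Tshz1, a zinc finger factor of the lateral eminence, averaged 143 ± 17.6 CPM in Sox9-tg and 192 ± 56.1 CPM in control libraries (adjusted p = 0.223; 0.0309 without control replicate 2). Zfhx3, a homeodomain and zinc finger factor, averaged 44.4 ± 25.0 CPM in Sox9-tg and 54.9 ± 15.03 CPM in control libraries (adjusted p = 0.661). Etv1, an ETS factor that oligodendrocyte progenitors also express, averaged 161 ± 47.0 CPM in Sox9-tg and 141 ± 28.9 CPM in control libraries (adjusted p = 0.668; SD, n = 4 and 3 for these 3 genes).

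Calb2 and Th mark differentiated interneurons of the olfactory bulb and moved apart. Calb2, which encodes calretinin, fell 3.08-fold, at 6.93, 6.09, 4.96 and 5.56 CPM in Sox9-tg libraries against 17.5, 17.7 and 19.3 CPM in control libraries (-1.62, SE 0.16, adjusted p = 0.000576). It had the smallest adjusted p of the 29 genes and the narrowest range within control libraries, 1.10 times from lowest to highest. Th, which encodes tyrosine hydroxylase of dopamine synthesis, rose 5.65-fold from a low level, at 13.2, 3.44, 7.66 and 7.95 CPM in Sox9-tg libraries against 1.92, 1.27 and 1.13 CPM in control libraries (2.498, SE 0.46, adjusted p = 0.00848; 0.0505 without control replicate 3). These control values rest on 33 to 39 reads per library.

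Ratios of related genes within a library do not depend on how the library is scaled. Of 7 such pairs among the members, chosen after the levels were seen, 5 had ratios that did not overlap between groups. For single genes, the groups did not overlap in 24.5% of all genes tested. No such share was worked out for other pairs of genes, so the count of 5 has no background. The mean log2 ratio of Gad1 to Gad2 was 1.54 ± 0.14 in Sox9-tg and 0.30 ± 0.09 in control libraries (SD, n = 4 and 3), and that of Dlx5 to Dlx6 was 0.53 ± 0.45 in Sox9-tg and 1.48 ± 0.08 in control libraries. That of Sp8 to Sp9 was -1.70 ± 0.20 in Sox9-tg and -0.89 ± 0.15 in control libraries. The widest shifts were those of Gsx1 to Gsx2, at 3.45 ± 0.28 in Sox9-tg and -0.19 ± 0.26 in control libraries, and of Lhx6 to Lhx8, at 1.55 ± 0.54 in Sox9-tg and 5.03 ± 0.49 in control libraries. The ratios are given as a description, with no p-value, since the pairs were chosen with the levels known. Dlx1 to Dlx2 was at 1.46 ± 0.11 in Sox9-tg and 1.44 ± 0.09 in control libraries. Foxp1 to Foxp2 was at 1.28 ± 0.27 in Sox9-tg and 1.10 ± 0.39 in control libraries.

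**Figure D5:**
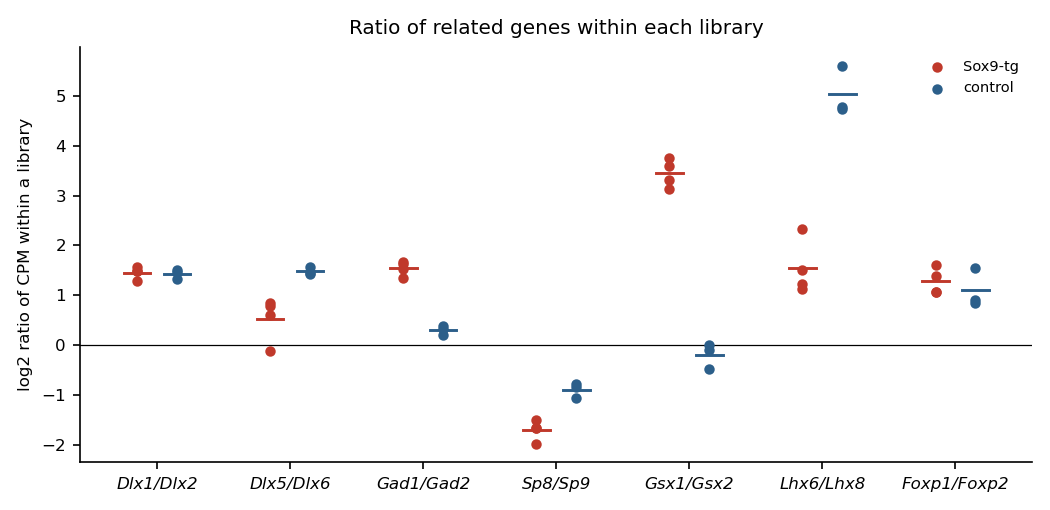
Log2 ratio of the CPM of related genes within each library, Sox9-tg (red) left of control (blue), with a short line at the group mean. The groups stand apart for Dlx5/Dlx6, Gad1/Gad2, Sp8/Sp9, Gsx1/Gsx2 and Lhx6/Lhx8, and overlap for Dlx1/Dlx2 and Foxp1/Foxp2.

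A list of 30 further genes of ventral forebrain progenitors, interneurons and striatal neurons that are not members was tested beside them. Of 28 tested, 8 fell, 1 rose and 19 did not pass, with a median log2 fold change of -0.94; over all genes tested 5.86% fell and 7.69% rose. Those that fell included genes of striatal projection neurons: the adenosine receptor Adora2a (-3.46, SE 0.32, adjusted p = 0.00036), the dopamine receptor Drd2 (-2.60, SE 0.29, adjusted p = 0.00101), the enkephalin precursor Penk (-1.89, SE 0.36, adjusted p = 0.00964) and the retinoic acid receptor Rarb (-1.25, SE 0.22, adjusted p = 0.0072). Other genes of such neurons in the list did not pass: the dopamine receptor Drd1 was at -0.36 (adjusted p = 0.59), the tachykinin precursor Tac1 at -0.65 (adjusted p = 0.508) and Ppp1r1b, which encodes a phosphatase inhibitor, at -0.99 (adjusted p = 0.254). Drd1 and Tac1 were scarce in both groups, at means of 0.77 and 0.98 CPM in Sox9-tg and 0.98 and 1.53 CPM in control libraries. Ppp1r1b averaged 4.46 CPM in Sox9-tg and 8.85 CPM in control libraries. The genes that fell averaged more in control libraries than Drd1 and Tac1, with Adora2a at 18.8, Drd2 at 12.9, Rarb at 9.02 and Penk at 4.74 CPM. These genes of striatal neurons were grouped so after their values were seen, and the group was not tested. Zic4 fell too (-1.60, adjusted p = 0.00466), as did Reln (-1.06, adjusted p = 0.0497) and Ackr3 (-0.77, adjusted p = 0.0375). Reln did not pass with upper-quartile factors (adjusted p = 0.0557), with a filter of 1 CPM (0.0502) or in limma-voom (0.0733), nor without Sox9-tg replicate 3 (0.122) or 4 (0.126), control replicate 1 (0.112) or 2 (0.134) or both libraries numbered 2 (0.103). Ackr3 failed without Sox9-tg replicate 3 (0.0846) or 4 (0.113) or control replicate 1 (0.158), 2 (0.0626) or 3 (0.0935). Kit, a receptor tyrosine kinase, rose to 42.2 ± 7.98 CPM in Sox9-tg, against 13.3 ± 1.90 CPM in control libraries (SD, n = 4 and 3; adjusted p = 0.000765). Vip and Pvalb did not pass the filter on low counts.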

How the data were processed

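RNA of mouse oligodendroglia was sequenced in 4 Sox9-tg and 3 control libraries, and the authors deposited raw read counts per gene for each. The submitters' processing notes list STAR 2.5.2b, Subread 1.5.2 with featureCounts, Trimmomatic 0.36, DESeq and DESeq2, and the build GRCm38. Settings and strandedness: not given in the sources used here. Therefore reads of the 9 members that share exonic bases with another gene cannot be assigned with certainty.

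Groups came from the sample titles. Genes passed edgeR's filterByExpr (minimum count 10, total 15), libraries were scaled by TMM (factors 0.965 to 1.05), and edgeR 4.0.16 (R 4.3.3) tested group by its quasi-likelihood F test, two-sided, with Benjamini-Hochberg adjustment over 16616 genes and a threshold of 0.05. CPM and RPKM used the scaled totals and union exon lengths of GENCODE M21 (GRCm38); 3 counts in a library were 0.097 to 0.193 CPM. The SE is the log2 fold change over the square root of F. The map of deviations used log2 CPM with a prior count of 2. Alternatives were other scalings and filters, DESeq2 1.42.0, limma-voom 3.58.1, a replicate block and libraries left out. The steps were checked on simulated counts. All 29 members are named, with genes of the other lists that passed and Dcx, Dlx1as, Dlx6os1, Drd1, Ppp1r1b, Six3os1 and Tac1, chosen after their values were seen. Some genes that passed are not reported here. Members and lists were chosen with earlier results of these data known.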

Additional observations from a re-analysis of the deposited data

Results flagged for a closer look

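The level of Maf in Sox9-tg replicate 2, 19.9 CPM, stood far from the other 3 Sox9-tg libraries, which held 7.66 to 8.003 CPM; the gap was 0.972 of the group's range, above Dixon's critical value for 4 samples. Of 40 such groups of values examined this was the only one past its critical value, and chance flags about 1 in 20.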

How the results depend on the processing

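Lists were compared under 16 alternatives, 1 of them (without both libraries numbered 2) chosen after seeing the data. The median log2 fold changes of Dlx and Gad genes (-1.05 to -0.50), of subtype factors (-1.49 to -1.07) and their difference kept their signs and moved by less than the spread between libraries in all 16. That spread is between single libraries, and leaving out 1 library moves a group mean by only part of that library's deviation. Staying within the spread is therefore a weak check. All 13 called members kept their calls under the 3 other scalings, both other filters, DESeq2 and limma-voom. Some of these fits called further members. Sp8, Lhx6 and Lhx8 passed without a filter on low counts, Sp8 and Lhx8 in DESeq2, and Lhx6 and Lhx8 in limma-voom. Of the 13, 10 kept their calls without Sox9-tg replicate 3 or 4 or control replicate 1, and 8 without control replicate 3. With 1 library, or both numbered 2, left out, 7 to 15 members fell and 1 to 3 rose, 390 to 1384 of all genes fell and 575 to 1785 rose, and 6 to 11 of the further ventral genes fell. Calls of all genes higher and all genes lower were 1278 and 973, but 1113 and 1112 with upper-quartile factors and 1117 and 1087 with total counts. Etv1, not called, ranged over these fits from -0.00382 (Sox9-tg replicate 1 left out) to 0.36, and the difference in the log2 ratio Dlx1/Dlx2 ranged from -0.034 (control replicate 3 left out) to 0.072; it was -0.018 with Sox9-tg replicate 2 left out. The cause of these shifts was not tested, beyond the fewer libraries of such fits.

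With the replicate number as a replicate block, 19 members and 16 of the further ventral genes fell, and 3 members rose. Of all genes, 1509 fell. Sox9-tg replicate 4 has no control library of its number. In this fit it therefore adds nothing to the group difference, which rests on numbers 1, 2 and 3. The 9 members newly past the threshold were Dlx1 (adjusted p = 0.0122), Dlx2 (0.0131), Dlx5 (0.0463), Gad1 (0.00908), Slc32a1 (0.0225), Sp8 (0.00312), Sp9 (0.00843), Lhx6 (0.000611) and, higher, Lhx8 (0.0101), so that 5 of the 6 Dlx and Gad genes fell in this fit, and the medians of both lists differed by 0.38. Deviations from the group means correlated between same-numbered libraries at 0.317, 0.613 and 0.07 for numbers 1, 2 and 3. Control replicates 1 and 2 correlated best with the Sox9-tg library of their number, and control replicate 3 with Sox9-tg replicate 1 (0.14). Deviations cancel out within a group, so these correlations depend on each other and cannot decide whether the numbers mark pairs. The main fit treats the libraries as sharing only a number, which is a choice. Whether the numbers mark a shared litter or preparation is not given by the labels, and the count of 1 Dlx or Gad gene called depends on leaving the block out. At the depth used, Th and Lhx8 rested on 33 to 62 reads per control library. The lowest count of any member was 25 reads, for Isl1 in Sox9-tg replicate 2, and Ebf1 rested on 51 to 105 reads per Sox9-tg library.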
